A study of Mus musculus with 16 samples.

Results

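Bisulphite sequencing (BS) and oxidative bisulphite sequencing (oxBS) were compared in naive T cells, across promoters, exons, introns, intergenic DNA and gene bodies. The comparison used the 8 T cell libraries of a series of 16 whole-genome libraries, selected by the cell type and assay that their labels give. The T cells were CD4+CD62L+ cells taken magnetically from the spleens of untreated C57BL/6J mice aged 6 to 8 weeks. BS libraries 5 and 7 and oxBS libraries 6 and 8 came from male mice, and BS libraries 13 and 15 and oxBS libraries 14 and 16 from female mice. The remaining 8 libraries were from CD43- resting B cells of the same strain and age, made in the same way, and are used below only to class genomic tiles and as a comparison. The design text describes pooled animals, and no label ties a library to a mouse or a BS library to the oxBS library made from the same DNA, so p-values measure the spread between libraries, part of which may be technical.

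In DNA, the TET enzymes oxidise 5-methylcytosine (5mC) to 5-hydroxymethylcytosine (5hmC), which is an intermediate of demethylation and is also kept as a stable mark. In many tissues 5hmC is richest in the bodies of transcribed genes and at enhancers, and scarce at unmethylated CpG island promoters. Standard bisulphite treatment leaves both 5mC and 5hmC to be read as methylated. For oxBS, part of each adapter-ligated sample was first oxidised with potassium perruthenate, after which only 5mC is read as methylated. BS minus oxBS, given here in percentage points, is therefore the usual estimate of 5hmC at a set of CpGs. It also carries any difference in conversion between the treatments, and the treatment and the library made with it cannot be told apart.

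The T cell libraries held between 151319281 and 163580930 calls at CpGs of chromosomes 1 to 19, or 7.42 to 8.03 calls per CpG, and the depths of BS and oxBS libraries overlapped. The cells were checked at the promoters of marker genes (within 1 kb of the gene start). Of 10 T cell marker promoters, 8 were less methylated in every T cell library than in every B cell library. *Cd3e*, a chain of the T cell receptor complex, lay between 1.05 and 5.53% in T cells and between 83.9 and 88.1% in B cells. The exceptions were *Cd28*, highly methylated in both cell types, and *Lat*, low in both. All 8 B cell marker promoters were more methylated in T cells. The promoters of *Cd8a* and *Cd8b1*, which mark the CD8 lineage, had medians of 60.3 and 36.1% in T cells and lay below their B cell levels in every T cell library. None of 4 natural killer cell markers, and 1 of 6 myeloid markers (*Lyz2*), had T and B cell ranges that did not overlap. Methylated calls on mitochondrial DNA, which serve as a background of unconverted cytosine, made up 0.128 to 0.188% of calls in BS libraries and 0.0549 to 0.0812% in oxBS libraries. This background was 0.0876 points higher in BS (two-sided exact permutation test, p = 0.0286) and its part in the differences below was not tested.

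BS levels were above oxBS levels in every feature class. Over the 14686244 CpGs with at least 3 calls in each T cell library, the level (the mean of the methylated fractions of single CpGs) was 79.8% ± 0.0725 in BS and 78.5% ± 0.0971 in oxBS libraries (SD, n = 4 each), a difference of 1.23 points with a standard error (SE) of 0.0606. Introns showed the largest difference of the 4 classes. Their level was 86.73, 86.78, 86.87 and 86.88% in BS libraries 5, 7, 13 and 15, and 85.08, 85.08, 85.25 and 85.23% in oxBS libraries 6, 8, 14 and 16. The assays did not overlap in introns, and within each assay both female libraries lay above both male libraries. The intronic difference was 1.66 points (SE 0.0583), that of exons was 1.44 points (SE 0.0557), that of promoters 1.13 points (SE 0.0305) and that of intergenic CpGs 0.793 points (SE 0.0774). In each class all 4 BS libraries lay above all 4 oxBS libraries, with p = 0.0286 in two-sided exact permutation tests, the smallest p that 4 against 4 libraries can give, and an adjusted p of 0.0286 over the 4 classes.

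**Figure D1:**
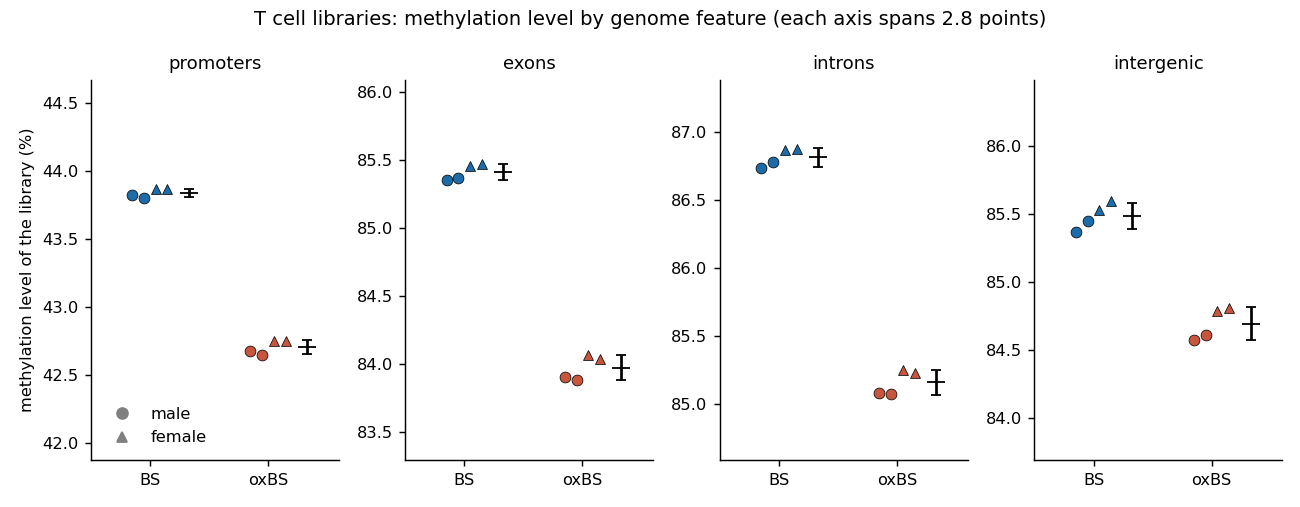
Methylation level (%) of each T cell library in promoters, exons, introns and intergenic DNA, with BS in blue and oxBS in red, male libraries as circles, female libraries as triangles, and the mean ± SD of 4 libraries beside them. Each axis spans the same number of percentage points, so the gap of 1.66 points in introns can be set beside that of 0.793 points in intergenic DNA.

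Intergenic DNA had the smallest difference, and each of the other classes was compared with it within libraries. The difference in introns exceeded that in intergenic DNA by 0.865 points (SE 0.0239), that in exons by 0.648 points (SE 0.0306) and that in promoters by 0.341 points (SE 0.0522). Each contrast had an adjusted p of 0.0286 over the 3 contrasts by the exact permutation test. Promoters have a much lower level than the other classes, 43.8% in BS, and relative to that level their difference was 2.59%, against 1.91% in introns and 0.928% in intergenic DNA. The promoter result depended on how CpGs were weighted. With calls pooled, so that deeply covered CpGs count more, promoter levels ran from 43.7 to 44.3% in BS and from 42.8 to 43.9% in oxBS libraries and overlapped, with a difference of 0.581 points (exact permutation test, adjusted p = 0.0857). The excess of promoters over intergenic DNA was then -0.0844 points (adjusted p = 0.771). Introns, exons and intergenic CpGs kept non-overlapping assays under that weighting.

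Both sexes showed the difference. For introns male libraries differed by 1.68 points and female libraries by 1.63 points, and for intergenic CpGs by 0.821 and 0.765 points. The male minus female difference ran from 0.0348 to 0.0568 points over the 4 classes. An exact permutation of assay labels within each sex gave an adjusted p of 0.722 in each class, the lowest unadjusted p being 0.556. With the assays fully apart in both sexes, that test cannot give a low p for so small a difference. It therefore does not decide whether the sexes differ. Within 1 sex, 2 against 2 libraries cannot give a p below 0.333.

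T cells also differed from B cells in this measure. Over the 11783704 CpGs with at least 3 calls in all 16 libraries, BS minus oxBS in introns was 1.64 points in T cells and -0.0267 points in B cells, and the T minus B difference was 1.67 points. It was 1.41 points in exons, 1.26 points in promoters and 0.841 points in intergenic CpGs, with an adjusted p of 0.0135 for each class by an exact permutation of assay labels within each cell type. With calls pooled the promoter difference was 1.76 points and no longer passed that exact test (adjusted p = 0.0882). In B cells the BS and oxBS ranges overlapped in every class, for example 86.55 to 87.29% in BS and 86.61 to 87.27% in oxBS in introns. The mitochondrial background also moved with cell type, being 0.251 to 1.21% in the B cell oxBS libraries and 0.0964 to 0.485% in the B cell BS libraries, and its part in the T minus B difference was not tested. Leaving out any 1 library kept the difference between 0.759 and 1.80 points across classes.

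The distance from a gene start set out the same pattern at finer scale. In bins of 0.5 kb around the start of the nearest protein-coding gene, the difference was lowest just downstream of the start, at 0.276 points between 0 and 0.5 kb, where the BS level was 8.36%. It rose to 2.53 points between 2.5 and 3 kb downstream, where the BS level was 72.8%, and was still 2.06 points between 9.5 and 10 kb downstream. Upstream, the highest bin was that between 1 and 1.5 kb, with 2.13 points, and the value fell to 1.51 points between 9.5 and 10 kb. BS and oxBS libraries did not overlap in any of the 40 bins. At 5 to 5.5 kb from the start, the level was 80.1% downstream and 82.6% upstream in BS, while the difference was 2.30 points downstream and 1.56 points upstream (values given as a description, without a test).

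**Figure D2:**
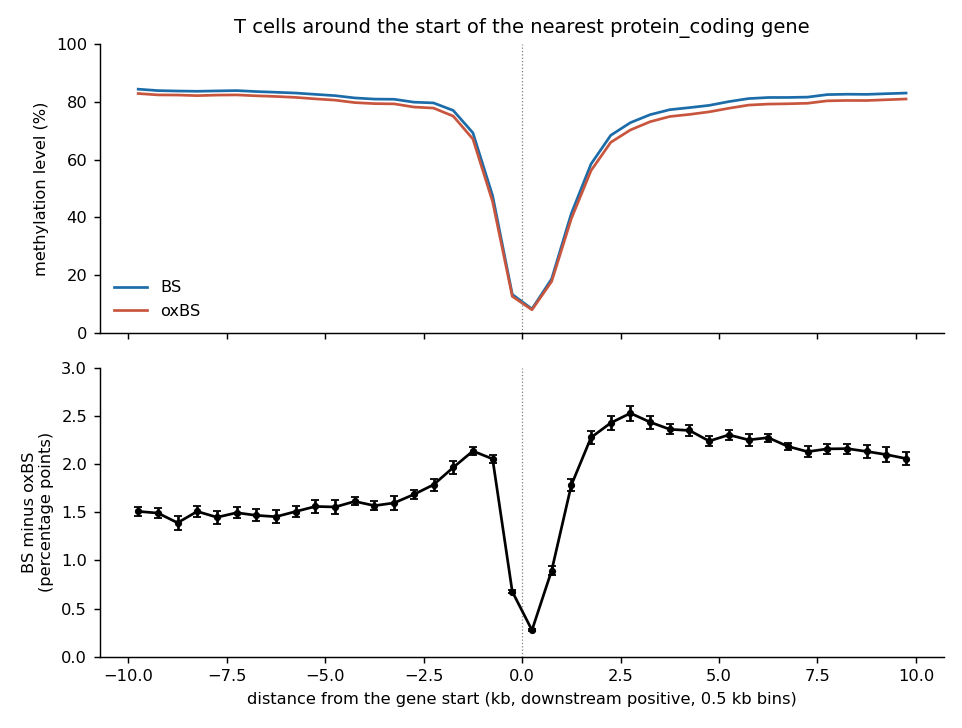
Upper panel: methylation level (%) of T cells in BS (blue) and oxBS (red), as means of 4 libraries, by distance in kb from the start of the nearest protein-coding gene. Lower panel: BS minus oxBS in percentage points with its SE, lowest at 0.276 points just after the start and highest at 2.53 points between 2.5 and 3 kb downstream.

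The genome was next divided into 1 kb tiles, classed by their methylation level in the 8 B cell libraries, which are independent of the T cell values. T cell BS minus oxBS was lowest, 0.401 points (SE 0.0143), in the 26562 tiles at 0 to 10% in B cells, and highest, 2.72 points (SE 0.0704), in the 17862 tiles at 40 to 50%. From there it fell to 1.06 points (SE 0.0997) at 80 to 90%, and was 1.21 points (SE 0.0591) in the 952439 tiles at 90 to 100%, which hold 52.5% of counted CpGs. Relative to the BS level the order was different. The difference was then largest, 12.4%, at 0 to 10%, where the BS level was 3.22%. It was 5.40% of the BS level at 40 to 50%, 1.24% at 80 to 90% and 1.29% at 90 to 100%. In tiles at 40 to 50% the BS libraries ran from 50.3 to 50.5% and the oxBS libraries from 47.6 to 47.8%. The assays did not overlap in any of the 10 classes (exact permutation test, adjusted p = 0.0286 in each). Neighbouring classes between 30 and 60% had differences of 2.67, 2.72 and 2.68 points, with gaps below the SE of the middle class.

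**Figure D3:**
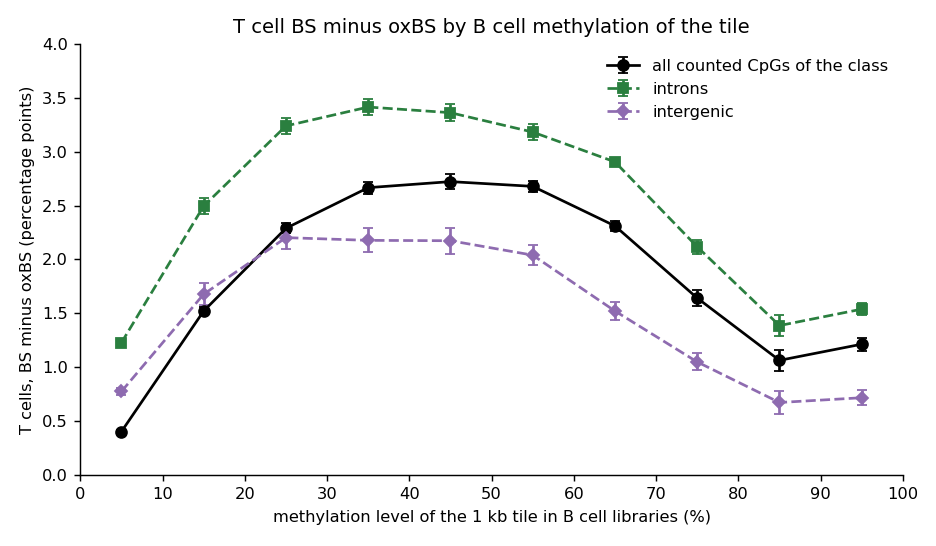
BS minus oxBS in T cells (percentage points, mean of 4 BS minus mean of 4 oxBS libraries, bars are the SE) against the methylation level of the 1 kb tile in B cell libraries, for all CpGs (black), introns (green) and intergenic CpGs (purple). Introns lie above intergenic CpGs in each class, for example 3.41 against 2.18 points at 30 to 40%.

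Within a tile class, introns stayed above intergenic DNA. The intronic difference was 3.41 points and the intergenic one 2.18 points in tiles at 30 to 40%, and 1.54 and 0.716 points in tiles at 90 to 100%. The classes were then weighted alike in both features, by their share of counted CpGs, a comparison chosen after the data were seen. The excess over intergenic DNA was then 0.820 points in introns, 0.756 points in promoters and 0.591 points in exons (exact permutation test, adjusted p = 0.0286 each). For promoters and exons this excess did not hold in every class. In tiles at 0 to 10% they differed by 0.317 and 0.492 points, against 0.773 points in intergenic DNA. Both lay below intergenic DNA in each class under 30% and above it in each class from 30% upwards. By CpG density, the difference was 0.358 points in tiles with more than 40 CpGs per kb, 1.52 points in those with 11 to 20 and 0.620 points in those with 1 or 2. The densest tiles were at 10.0% in BS and those with 11 to 20 CpGs at 86.1%, and relative to these levels the differences were 3.58 and 1.76%. Every chromosome had a positive difference without overlap of the assays, from 1.01 points on chromosomes 8 and 18 to 1.61 points on chromosome 11.

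Gene bodies were then tested singly, from 1 kb inside the gene start to the gene end, with a quasi-binomial logistic model of methylated and total calls, sex as a covariate and dispersions moderated by limma. Of 18653 protein-coding gene bodies with at least 10 counted CpGs, 7003 were called higher in BS at an adjusted p under 0.05, which is 37.5% of those tested, and 50 were called lower, which is 0.268%. The 4 BS libraries lay above the 4 oxBS libraries in 35.0% of gene bodies and below them in 0.332%. The median difference was 1.32 points, with 5% of genes under -1.11 and 5% over 6.83 points, and 298 genes exceeded 10 points. Longer bodies were called more often, 21.7% of the shortest and 49.0% of the longest of 5 equal groups by length, while their median differences were 1.33 and 1.00 points and their median SEs 1.47 and 0.364 points. When each library was centred on its own level over all gene bodies, which asks for changes relative to the average gene, 3937 bodies were higher (21.1%) and 1246 lower (6.68%). With limma on the mean of per-CpG fractions, an alternative chosen after the data were seen that gives every CpG the same weight and also replaces the logistic model, 9454 were higher (50.7%) and 76 lower (0.407%). With limma on gene levels, which keeps the pooled calls, 6425 were higher and 45 lower.

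The differences of single genes recurred between male and female mice, which were measured in separate libraries. Across the 12459 gene bodies with at least 100 CpGs, the difference in male libraries and that in female libraries had a Pearson correlation of 0.735 and a Spearman correlation of 0.646. Over all 18653 gene bodies tested the correlations were lower, 0.621 and 0.539, and 75.5% of genes had the same sign in both sexes. These correlations are across genes, which are not independent replicates. Extremes were taken among the bodies with at least 100 CpGs. The 124 genes with the highest 1% of male differences had a male median of 12.5 points and a female median of 12.2 points. All of them were positive in females, beside 87.7% of the middle 10% of genes by male difference. The 623 genes with the lowest 5% of male differences had a male median of -1.72 and a female median of 0.238 points.

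Naive T cells are held in their state by a set of transcription factors that also set up the lineage in the thymus, and the bodies of these genes carried large differences. Of 20 T lineage transcription factors, 19 were called higher in BS and none lower, with a median of 8.32 points. Over all gene bodies 37.5% were called higher, 0.268% were called lower and the median was 1.32 points. *Lef1*, an HMG box factor of the WNT pathway, lies on chromosome 3 (mm10 chr3:131110471-131224356, plus strand). Its body was at 46.9, 43.5, 44.8 and 46.4% in BS libraries 5, 7, 13 and 15, and at 26.8, 25.5, 28.0 and 27.2% in oxBS libraries 6, 8, 14 and 16. The lowest BS library was thus well above the highest oxBS library, and the difference of 18.5 points (SE 0.952, adjusted p = 4.64e-09) was 40.8% of the BS level. *Bcl11b*, a zinc finger factor needed for T cell commitment (mm10 chr12:107910403-108003602, minus strand), was at 41.6, 40.7, 43.2 and 42.6% in those BS libraries and at 24.8, 21.8, 24.4 and 24.98% in the oxBS libraries. Its difference was 18.04 points (SE 0.907, adjusted p = 1.11e-09). *Satb1*, a chromatin organiser, differed by 15.3 points (SE 0.835), from 35.0 to 19.6%. *Tcf7*, which encodes TCF1, the partner of LEF1 in naive T cells, differed by 12.4 points (SE 0.417), from 24.8 to 12.4%, so that the difference was 49.9% of its BS level. *Ikzf1* differed by 14.9 points and *Foxo1*, which keeps naive T cells quiescent, by 14.9 points. *Runx3*, a factor of CD8 and effector T cells, had the smallest difference of the list, 2.77 points (SE 0.833, adjusted p = 0.00123, not called by limma on gene levels), and *Id3* was not called at 3.51 points (adjusted p = 0.0523). In B cell libraries BS minus oxBS was -1.13 points at *Lef1* and 0.874 points at *Bcl11b*.

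The differences at *Lef1* and *Bcl11b*, which were the largest of the transcription factor list, were spread along the genes. In 4 kb windows, 26 of 28 windows inside *Lef1* and 22 of 23 inside *Bcl11b* had all BS libraries above all oxBS libraries. The difference exceeded 10 points in 23 and 17 of these windows. The assays already did not overlap over either whole body. No other gene was profiled in this way, so no share over ordinary genes stands beside these counts. In the window at the start of *Lef1* the level was 0.191% in BS and 0.0890% in oxBS. These values are near the mitochondrial background, 0.128 to 0.188% in BS and 0.0549 to 0.0812% in oxBS libraries. The widest gap in *Lef1* lay between 64 and 68 kb from the start, at 61.3% in BS and 35.0% in oxBS over 41 CpGs, and that in *Bcl11b* between 56 and 60 kb, at 82.5 and 54.4% over 39 CpGs. In the 12 kb upstream of the starts, differences ran from 0.0249 to 4.74 points at *Lef1* and from 1.61 to 2.66 points at *Bcl11b*. Beyond the end of *Lef1* the difference continued, at 12.8, 5.77 and 7.17 points in the next 3 windows, and beyond the end of *Bcl11b* it was 2.25, 2.34 and 3.79 points.

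**Figure D4:**
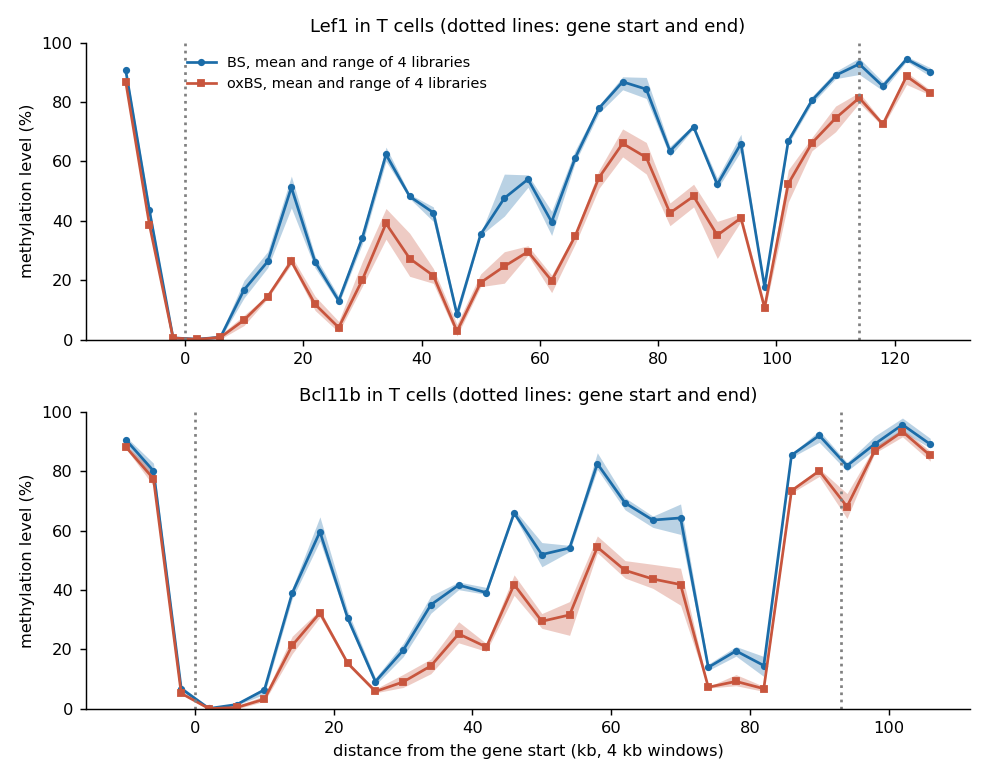
Methylation level (%) of T cells in 4 kb windows along *Lef1* and *Bcl11b* by distance in kb from the gene start, as the mean (points) and range (shading) of 4 BS (blue) and 4 oxBS (red) libraries; dotted lines mark gene start and end. Both assays are near 0% at the starts and part inside the genes, most at 64 to 68 kb in *Lef1* and 56 to 60 kb in *Bcl11b*.

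The CpGs behind the widest gaps are shown in the 200 bp of each of those windows that hold most counted CpGs, as plus strand sequence of mm10 from 5′ to 3′, with counted CpGs in capitals. The intronic *Lef1* stretch, chr3:131177912-131178111, has 6 counted CpGs at 84.2% ± 10.1 in BS and 51.3% ± 9.14 in oxBS (SD, n = 4 each). The intronic *Bcl11b* stretch, chr12:107947393-107947592, has 5 at 91.8% ± 3.17 and 72.8% ± 3.76. Because the windows were picked for their difference, these levels are a description without a test, and each rests on 25 to 70 calls per library.
Lef1: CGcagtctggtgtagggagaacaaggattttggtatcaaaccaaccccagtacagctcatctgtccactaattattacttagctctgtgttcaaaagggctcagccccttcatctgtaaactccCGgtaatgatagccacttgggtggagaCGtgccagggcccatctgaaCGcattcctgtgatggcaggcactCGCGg
Bcl11b: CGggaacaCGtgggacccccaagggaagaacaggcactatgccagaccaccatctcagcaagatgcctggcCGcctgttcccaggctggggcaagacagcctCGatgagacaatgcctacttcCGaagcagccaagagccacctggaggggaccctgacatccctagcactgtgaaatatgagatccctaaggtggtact

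Genes of the T cell receptor complex and its signalling chain showed the same direction. Of 25 measured, 24 were called higher in BS and none lower, beside 37.5% and 0.268% of all gene bodies, with a median of 8.85 points. *Cd3e* had the largest difference. It was at 70.4, 75.5, 68.3 and 68.9% in BS libraries 5, 7, 13 and 15 and at 57.3, 53.7, 52.4 and 56.8% in oxBS libraries 6, 8, 14 and 16, a difference of 15.7 points (SE 2.02, adjusted p = 9.26e-06). *Cd5*, an inhibitory co-receptor, differed by 15.1 points, the adaptor gene *Lat* by 14.1 points and the kinase gene *Lck* by 13.3 points. *Bcl10*, which encodes an adaptor of NF-kB signalling, was not called, at 37.9% in BS and 37.2% in oxBS (adjusted p = 0.640). Its difference was 3.03 points and called by limma on per-CpG fractions, and with pooled calls it turned to -0.112 points without BS library 7.

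Genes for the homing and survival of naive T cells had the highest median of the 11 lists, 9.59 points, with 11 of 12 called higher, beside 37.5% of all gene bodies, and none lower. *Il7r*, the receptor chain for the survival cytokine interleukin 7, was at 80.4, 78.3, 79.9 and 83.7% in BS libraries 5, 7, 13 and 15 and at 67.9, 65.2, 61.7 and 66.0% in oxBS libraries 6, 8, 14 and 16, a difference of 15.4 points (SE 1.71, adjusted p = 1.22e-05). *Ccr7*, the chemokine receptor for entry into lymph nodes, was at 12.3% in BS and 2.82% in oxBS, so that the difference was 77.1% of its BS level. *Itgal*, an integrin chain, had the smallest difference, 4.91 points (SE 0.273). *Cxcr4* was not called, at 6.82 points (adjusted p = 0.0804). In these 3 lists the B cell libraries had median differences of -0.315, -0.285 and -0.475 points (transcription factors, receptor and homing genes). With libraries centred, 17, 24 and 10 genes were still called higher and none lower, beside 21.1% and 6.68% of all gene bodies.

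**Figure D5:**
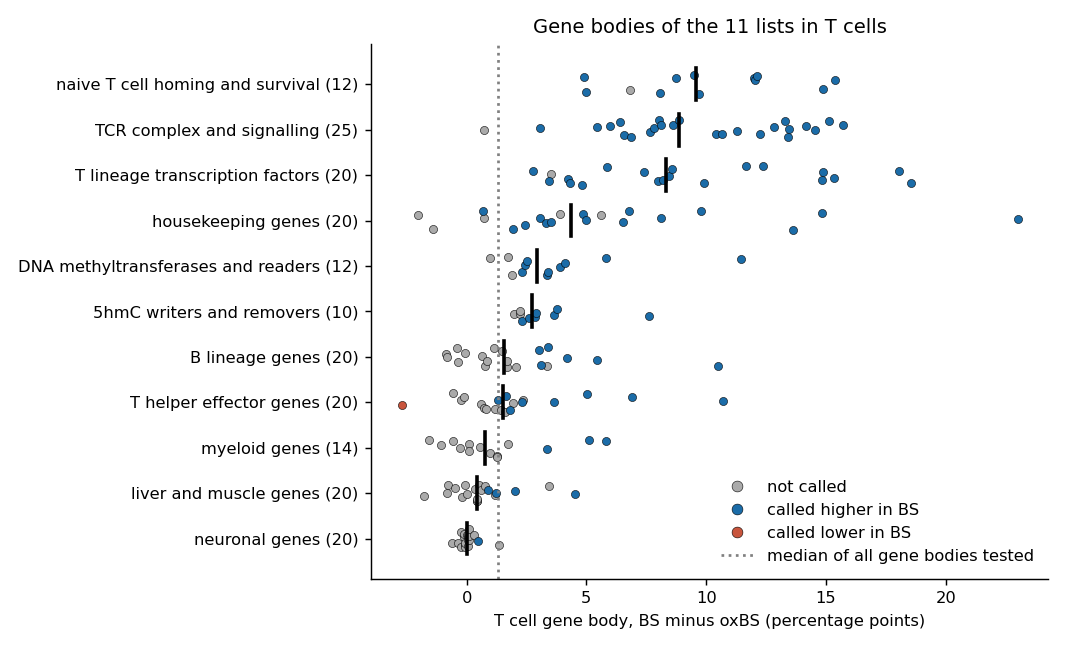
BS minus oxBS (percentage points) of T cell gene bodies in the 11 gene lists, each point a gene (blue called higher in BS, red called lower, grey not called), black bars the list medians and the dotted line the median of all gene bodies tested, 1.32 points. The 3 T cell lists have medians from 8.32 to 9.59 points, and the neuronal list 0.0332 points.

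Lists of genes outside the naive T cell programme had smaller medians. Of 20 T helper effector genes, 8 were called higher and 1 lower, with a median of 1.52 points, beside 37.5% called higher over all gene bodies. With libraries centred, 2 were higher and 1 lower, beside 21.1% and 6.68% of all gene bodies. *Il21*, a cytokine of follicular helper cells, had the largest difference, 10.7 points (SE 1.56, adjusted p = 0.000107). *Maf*, a factor of the same cells, was called lower at -2.71 points (SE 1.01, adjusted p = 0.0224), but its BS and oxBS libraries overlapped and its value was 0.287 points in introns alone and 0.329 points by limma on per-CpG fractions. Of 20 B lineage genes 6 were higher and none lower, with a median of 1.58 points, beside the same 37.5%. With libraries centred, 3 were higher and 1 lower, beside the same 21.1% and 6.68%. Among them *Cd79a*, a chain of the B cell receptor, differed by 10.5 points over 30 CpGs, or 15.6 points between male libraries and 5.40 points between female libraries. *Cd22* had the smallest value, -0.871 points (adjusted p = 0.579), and *Pax5*, the B cell commitment factor, was at -0.389 points (adjusted p = 0.564). Of 14 measured myeloid genes 3 were higher, with a median of 0.769 points, beside the same 37.5%. With libraries centred 1 was higher, beside the same 21.1%. Males alone gave a median of 0.702 points, females alone -0.345 points, and per-CpG fractions 0.395 points. The genes ran from *Elane* at -1.58 points (adjusted p = 0.280) to *Cd68* at 5.82 points (adjusted p = 0.0234, not called by limma on gene levels).

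Tissue genes outside the blood had the lowest medians. Of 20 neuronal genes 1, *Rbfox3*, was called higher, at 0.482 points (adjusted p = 0.0485), beside 37.5% of all gene bodies. The list median was 0.0332 points, or -0.0228 points in males and 0.0514 points in females, and the genes ran from *Gria2* at -0.606 (adjusted p = 0.619) to *Grin1* at 1.37 points (adjusted p = 0.405). *Rbfox3* was not called by limma on per-CpG fractions. *Rbfox1*, the gene of the list with 7719 counted CpGs, was at 84.5% in both assays with an SE of 0.126 points, while the SE was 1.298 points at *Gria2* and 1.47 points at *Grin1*. With libraries centred, 17 of the 20 neuronal genes were called lower than the average gene, beside 6.68% of all gene bodies. None was called higher then, beside 21.1% of all gene bodies. Of 20 liver and muscle genes 4 were higher, or 1 higher and 2 lower with libraries centred. Their median was 0.444 points, from *Serpina1a* at -1.78 points (adjusted p = 0.300) to *Apoa1* at 4.53 points (adjusted p = 0.0477). By limma on per-CpG fractions *Apoa1* was at 1.87 points and was not called (adjusted p = 0.211).

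Of 10 genes for TET enzymes, base excision and the dehydrogenases *Idh1* and *Idh2* 7 were higher and none lower, with a median of 2.73 points. *Tet3* differed by 7.63 points (SE 0.608), *Tet1* by 3.77 points and *Tet2* by 3.64 points. *Neil2*, a DNA glycosylase gene, had the smallest difference, 1.995 points (adjusted p = 0.0547). Of 12 genes for DNA methyltransferases and readers of methylation 9 were higher and none lower, with a median of 2.94 points. Over all gene bodies 37.5% were called higher. With libraries centred, 5 of these 10 and 6 of these 12 were called higher. The shares of all gene bodies were then 21.1% higher and 6.68% lower. *Mbd2*, a methyl-CpG binding protein gene, led with 11.5 points (SE 0.895, adjusted p = 1.86e-07), the de novo enzyme gene *Dnmt3a* differed by 5.81 points, and its relative *Dnmt3b* was not called at 0.996 points (adjusted p = 0.262), though it was called at 1.24 points by limma on per-CpG fractions (adjusted p = 0.00886). Of 20 housekeeping genes 15 were higher and none lower, or 9 higher and 1 lower with libraries centred, with a median of 4.36 points and the widest spread of the lists, from *Eef1a1* at -2.02 points (adjusted p = 0.173) to *B2m* at 23.0 points. *Eef1a1* turned to 1.57 points by limma on per-CpG fractions (adjusted p = 0.0056) and to 3.44 points in introns alone (adjusted p = 0.0253), both called higher.

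The largest differences among called genes without overlap of the assays were mostly at gene bodies with few counted CpGs. *Olfr9*, annotated as an olfactory receptor gene (mm10 chr10:128989431-128992102), was at 63.3, 60.3, 57.4 and 65.0% in BS libraries 5, 7, 13 and 15 and at 34.1, 25.8, 33.0 and 32.9% in oxBS libraries 6, 8, 14 and 16. That difference of 30.02 points (SE 2.55, adjusted p = 1.37e-05) rests on 10 CpGs. *B2m*, the light chain of MHC class I (chr2:122147686-122153083), was at 53.2, 48.7, 56.2 and 52.2% in BS and at 34.0, 29.4, 26.5 and 28.7% in oxBS over 35 CpGs, a difference of 23.0 points (SE 2.21). Its body lies wholly within the annotated gene *Patl2*, so the CpGs belong to both. *E030018B13Rik* (chr7:63916857-63920539) followed with 22.1 points (SE 2.30) over 17 CpGs, wholly within the annotated gene *Klf13*. By limma on per-CpG fractions the order changed, with *Olfr9* at 20.4 points, *B2m* at 15.4 points and *E030018B13Rik* at 20.5 points, each still called higher. *Ms4a4b*, a membrane protein gene of T cells, differed by 21.7 points and *Gimap6*, a GTPase gene of lymphocytes, by 21.5 points, or 13.2 points by limma on per-CpG fractions. *Med11* differed by 21.2 points (SE 6.96) or 10.2 points in males and 32.1 points in females, *Tnfaip8l2* by 20.3 points, the splicing factor gene *Srsf3* by 19.6 points, the GTPase gene *Rap1b* by 19.1 points and the chemokine receptor gene *Ccr8* by 18.99 points. The 10 genes have between 10 and 173 counted CpGs, and the B cell libraries had differences between -5.41 and 1.70 points there.

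The 200 bp of the first 3 of these bodies that hold most counted CpGs, leaving out annotated untranslated regions, are given as mm10 plus strand sequence from 5′ to 3′, with counted CpGs in capitals. The exonic stretch of *Olfr9* at chr10:128990537-128990736 was at 29.6% ± 2.30 in BS and 14.4% ± 1.64 in oxBS (SD, n = 4 each). The intronic stretch of *B2m* at chr2:122148726-122148925, the densest of its body outside untranslated regions, had no methylated call in any library, which allows a level of up to 3.61 to 8.11% per library (3 calls of the total, counting error only), so the difference of that gene lies at its other CpGs. The exonic stretch of *E030018B13Rik* at chr7:63919259-63919458 was at 86.3% ± 4.18 in BS and 72.3% ± 5.84 in oxBS.
Olfr9: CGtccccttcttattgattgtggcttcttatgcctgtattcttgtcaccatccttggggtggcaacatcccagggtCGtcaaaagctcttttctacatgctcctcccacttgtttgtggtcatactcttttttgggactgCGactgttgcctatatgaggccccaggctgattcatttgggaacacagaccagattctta
B2m: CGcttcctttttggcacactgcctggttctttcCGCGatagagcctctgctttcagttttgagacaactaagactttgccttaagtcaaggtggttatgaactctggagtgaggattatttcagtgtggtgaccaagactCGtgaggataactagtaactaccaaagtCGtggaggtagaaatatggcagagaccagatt
E030018B13Rik: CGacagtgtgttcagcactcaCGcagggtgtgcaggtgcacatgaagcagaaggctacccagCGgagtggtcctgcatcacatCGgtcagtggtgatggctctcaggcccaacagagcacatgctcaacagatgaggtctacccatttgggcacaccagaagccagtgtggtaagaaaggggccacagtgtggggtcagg

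Few gene bodies were called lower in BS, and most of these calls did not hold with limma. Of the 50, 15 had no overlap of the assays. Limma on gene levels, which keeps the pooled calls, called 16 of the 50 lower, and limma on per-CpG fractions called 4 of them lower. Among the 15, *Ube2q2* was lower by the most, at -6.44 points (SE 1.87, adjusted p = 0.00282), with *Mier3* at -5.54 points and *Pnpla8* at -4.62 points. By limma on per-CpG fractions these were 1.44, 0.983 and 1.05 points, each called higher. *Slc29a4* and *Ndnf* went from -2.70 and -2.65 to 0.338 and 0.585 points, and *Diras1* and *Tpbg* from -3.70 and -3.52 to -1.11 and -0.0834 points, none of them called then. *Gm12789* at -5.14 points, *Krt40* at -2.66 points and *Fbxw27* at -2.54 points were also called lower by limma on per-CpG fractions, at -5.39, -3.08 and -2.83 points. These 3 have 13, 57 and 108 counted CpGs.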

How the data were processed

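Trim Galore 0.6.0, Bismark 0.20.0 and SAMtools 1.3.1 are named in the submitters' processing notes. The authors mapped reads to mm10 (GRCm38) and took calls from reads of MAPQ 10 or above. For each CpG, with both strands added, they deposited the count of unmethylated and the count of methylated calls, unnormalised. Positions that are not CpGs of the reference (49822 to 56310 per T cell library) were left out, as were chromosomes other than 1 to 19 except the mitochondrial background. CpGs with at least 3 calls in each T cell library were used, classed by GENCODE vM21 in the order promoter (within 1 kb of a transcript start), exon, intron, intergenic. Tiles of 1 kb needed 3 counted CpGs and 50 B cell calls. Class levels were means of per-CpG fractions, compared by two-sided exact permutation tests with Benjamini-Hochberg adjustment at 0.05. Gene bodies were fitted as described in the report with limma 3.58.1 in R 4.3.3, and other steps used Python 3.11.15, NumPy 2.4.6 and SciPy 1.17.1.

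On simulated data with real depths over 18653 gene bodies, the model called 98% of genes raised by 10 points and 66% of those raised by 5 points. It called 96% and 64% of genes lowered by 10 and 5 points, and 11 of 18453 unchanged genes. The simulation gave every gene the same extra spread between libraries and no shift common to all genes. It changed only gene bodies of intermediate level, while the bodies called higher in the real data had a median BS level of 89.9%. Its rates therefore need not hold for the real calls. Named genes were those called without overlap of the assays, the 10 largest differences in each direction, and in each list the largest and smallest difference; other named list members, and the sequence stretches of *Lef1* and *Bcl11b*, were chosen after their values were seen. The members, lists and tests were chosen with earlier results of these data known. *S100a8* and *S100a9* of the myeloid list had too few counted CpGs. Alternatives covered call minimum, weighting, deep CpGs, annotation, covariate, dispersion, centring, sex and each library left out. The spike-ins were not analysed here. A few members of the lists are counted with their list but not reported singly here.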

Additional observations from a re-analysis of the deposited data

Results flagged for a closer look

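Each of the following is a value that stands apart by a fixed rule, with no explanation weighed. Single libraries lay far from the other 3 of their assay in 6 of the 114 groups of 4 libraries examined, and chance gives about 1 in 20. In tiles at 40 to 50% in B cells, female BS library 13 was the lowest of the BS libraries at 50.3%. At *Olfr9*, male oxBS library 8 was the lowest of the oxBS libraries at 25.8%. At *Ccr8*, female BS library 13 was the highest of the BS libraries at 70.98%. At *Gm12789*, female oxBS library 14 was the highest of the oxBS libraries at 97.1%. At *Slc29a4*, male BS library 5 was the lowest of the BS libraries at 62.2%. At *Itgal*, female oxBS library 16 was the lowest of the oxBS libraries at 83.1%. In each of the 6 the assays did not overlap, and leaving a library out cannot make them overlap. *Olfr9*, *Ccr8*, *Gm12789* and *Slc29a4* were chosen for that lack of overlap.

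The T cell difference exceeded the B cell difference in all 4 feature classes by the exact test given in the report: by 1.26 points in promoters, 1.41 points in exons, 1.67 points in introns and 0.841 points in intergenic CpGs.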

How the results depend on the processing

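No paired analysis was possible because the library numbers are unique and no label ties a BS library to the oxBS library of the same DNA. Sex was the covariate or stratum instead.

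With 2 against 2 libraries of 1 sex the exact test cannot go below 0.333, and permuting within sex it cannot go below 0.0556, so no class, contrast or tile value passes there by construction. In males the differences were 1.26 points over all CpGs, 1.15 in promoters, 1.47 in exons, 1.68 in introns and 0.821 in intergenic CpGs. The excess over intergenic DNA was 0.3298, 0.647 and 0.860 points in promoters, exons and introns, and the tile classes from 0 to 10% upwards gave 0.412, 1.57, 2.32, 2.73, 2.75, 2.73, 2.34, 1.69, 1.08 and 1.23 points. In females they were 1.21, 1.12, 1.41, 1.63 and 0.765 points, with an excess of 0.352, 0.649 and 0.870 points and tile values of 0.390, 1.47, 2.25, 2.60, 2.69, 2.63, 2.28, 1.59, 1.04 and 1.19 points. Permuting within sex leaves the values of the report: 1.23, 1.13, 1.44, 1.66 and 0.793 points, an excess of 0.341, 0.648 and 0.865 points, and 0.401, 1.52, 2.29, 2.67, 2.72, 2.68, 2.31, 1.64, 1.06 and 1.21 points by tile class.

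With calls pooled, promoters differed by 0.581 points, or by 0.487 points over CpGs with at least 5 calls in the library, and neither passed the exact test (adjusted p = 0.0857 and 0.343). Their excess over intergenic DNA turned to -0.0844 and -0.138 points, the T minus B difference was 1.76 points (exact test, adjusted p = 0.0882) and the male minus female difference was -0.335 points. Promoters took 16.4 to 16.7% of calls in BS and 15.9 to 16.6% in oxBS libraries, and the part of this in the result was not tested.

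Of gene bodies, centring gave 3937 higher and 1246 lower. Male libraries alone gave 4216 calls, 4163 of them higher, and female libraries alone 4011, with 3981 higher and 30 lower. Lower calls were 31 in introns alone, 31 with the dispersion of each gene alone and 76 by limma on per-CpG fractions. Leaving out 1 library gave 6272 to 6385 calls, of which 39 to 63 were lower.

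Single genes changed sign as follows, in log-odds for centring and in points otherwise. With centring *Bcl10* was -0.0621 and *Grin1* -0.0405. In introns alone *Ube2q2* was 0.663, *Mier3* 1.74, *Pnpla8* 1.45, *Slc29a4* 0.357, *Maf* 0.287, *Gria2* 0.445, *Grin1* -0.149 and *Eef1a1* 3.44. By limma on per-CpG fractions *Ube2q2* was 1.44, *Mier3* 0.983, *Pnpla8* 1.05, *Slc29a4* 0.338, *Ndnf* 0.585, *Maf* 0.329, *Gria2* 0.342 and *Eef1a1* 1.57, of which *Ube2q2*, *Mier3*, *Pnpla8* and *Eef1a1* were called higher. *Bcl10* was -0.0976 with at least 5 calls per CpG and -1.27 in females. Leaving out 1 library, *Bcl10* ran from -0.112 (without male BS library 7) to 1.36 and *Gria2* from -1.62 to 0.182 (without female BS library 13). *Dnmt3b* was -0.690 in males, and *Gria2* was 0.952 in males. The cause was not tested in any of these. At about 8 calls per CpG and library, single CpGs were not compared.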
